A study of Mus musculus with 2 samples.

Results

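DNase I signal was compared between untreated and IL-6-treated M1 cells on the coding spans of 3940 mouse genes that were strong in untreated cells, and 423 of them (10.7%) kept their signal. Reads were spread more evenly along these kept genes than along the other strong genes, with a median SD between windows of 0.579 times the mean against 1.61 times. They were chosen by the signal values themselves. For each gene on chromosomes 1 to 19 the listed transcript with the most 700-bp windows was taken, and a gene was kept if it had at least 5 windows, a mean of at least 15 reads per window in untreated M1 cells and an equal or higher scaled mean after IL-6. Of 21648 genes on these chromosomes, 16130 had at least 5 windows, and 12190 of those were under 15 reads per window in untreated cells. The remaining 3517 strong genes had a lower mean after IL-6. Because the means selected the genes, the means and their ratio are given as a description and are not tested.

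M1 is a murine myeloid progenitor cell line derived from leukemia, and both libraries came from cells at passages 15 to 18. One group was left untreated, and the other was grown with IL-6 for 4 to 5 days, which differentiates the cells toward macrophages. Each group is 1 library, so the differences have no replicate check. Small fragments released from nuclei by limited DNase I digestion were sequenced, so reads mark DNA that the enzyme could reach. Coding spans that do not overlap held 8765370 reads in the untreated library and 8255240 in the other. The kept genes together held 275900 reads before and 307506 reads after IL-6 over 14449 windows, and 1 read of the IL-6 library counts as 1.038 in the scaled values. Ratios carry 95% intervals by the Clopper-Pearson method, which hold for the counting error of this pair of libraries and not for the conditions.

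DNase I cuts regulatory DNA that is free of nucleosomes far more readily than packed chromatin. Promoters and enhancers in use therefore stand out as short, sharp sites. A lower and broader signal along a whole gene can come from chromatin that is moderately open, and also from the number of copies of a region, from its base composition and from how well reads can be placed there. In a differentiating cell line some sharp sites can close while others open. A mean over a gene cannot tell a few sharp windows from many moderate ones, but the SD between windows can.

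Single windows show the sequence and the reads behind these means. The central 150 bases of 5 such windows are shown, read on the gene's own strand from NCBIM37, with CG pairs in capitals. They are the windows with the most scaled IL-6 reads among kept genes and with the most untreated reads among the others, taken where the bases hold no untranslated exon and the gene is mostly unique sequence. Since the first were picked by IL-6 reads and the last by untreated reads, their direction is no comparison of the groups. Reads cannot be placed more finely than the window. The first 3 belong to kept genes and lie in introns. The last 2 belong to genes with a lower mean after IL-6, of which Alox5ap lies in an intron and Nktr just upstream of the annotated transcripts.
Uspl1 (chr5:150006076-150006225): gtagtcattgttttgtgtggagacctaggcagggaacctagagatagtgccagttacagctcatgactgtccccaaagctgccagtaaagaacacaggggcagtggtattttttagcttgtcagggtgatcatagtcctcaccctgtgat
Ctnnb1 (chr9:120859476-120859625): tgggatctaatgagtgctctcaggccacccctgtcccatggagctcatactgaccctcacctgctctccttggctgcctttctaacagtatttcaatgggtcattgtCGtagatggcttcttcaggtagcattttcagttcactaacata
Dennd4b (chr3:90070676-90070825): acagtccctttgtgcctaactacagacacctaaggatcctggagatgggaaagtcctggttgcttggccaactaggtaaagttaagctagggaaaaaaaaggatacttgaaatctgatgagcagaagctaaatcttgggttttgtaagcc
Alox5ap (chr5:150076776-150076925): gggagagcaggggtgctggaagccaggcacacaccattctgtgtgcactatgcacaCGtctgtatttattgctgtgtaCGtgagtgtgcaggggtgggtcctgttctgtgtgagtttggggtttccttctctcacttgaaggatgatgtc
Nktr (chr9:121628076-121628225): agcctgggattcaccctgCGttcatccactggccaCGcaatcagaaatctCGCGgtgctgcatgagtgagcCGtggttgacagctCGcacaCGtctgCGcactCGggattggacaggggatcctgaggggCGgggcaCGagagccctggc
The Uspl1 window held 54 reads before and 35 after IL-6. The window of Ctnnb1, which encodes beta-catenin of the Wnt pathway, held 23 and 34 reads. The Dennd4b window held 83 and 33 reads, so the windows of Dennd4b and Uspl1 were lower after IL-6 although the whole genes were kept. The Alox5ap window, at the start of the gene for the protein that activates 5-lipoxygenase, held 2167 reads in untreated cells and 426 after IL-6. The Nktr window held 1143 and 242 reads. CG pairs numbered 8, 9 and 9 in the whole 700-bp windows of the kept genes, 10 in that of Alox5ap and 76 in that of Nktr.

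Most kept genes were only just strong. Their untreated mean had a median of 17.5 reads per window (10th to 90th percentile 15.3 to 22.6), and 314 of 423 were under 20. After IL-6 the median was 20.8 scaled reads per window. The other strong genes had a median of 24.5 in untreated cells and 14.4 after IL-6. The share of strong genes that was kept was 25.5% of 670 genes with an untreated mean of 15 to 17, 10.2% of 807 genes at 20 to 25 and 0.393% of 763 genes at 40 or more. Only Sfi1, Elfn1 and Alad were kept at a mean of 40 or more. Among all 15929 genes with at least 5 windows and any reads, 52.7% had an IL-6 mean at or above the untreated mean. The kept share of 10.7% is thus a share of strong genes, which were picked for being high in untreated cells.

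**Figure D1:**
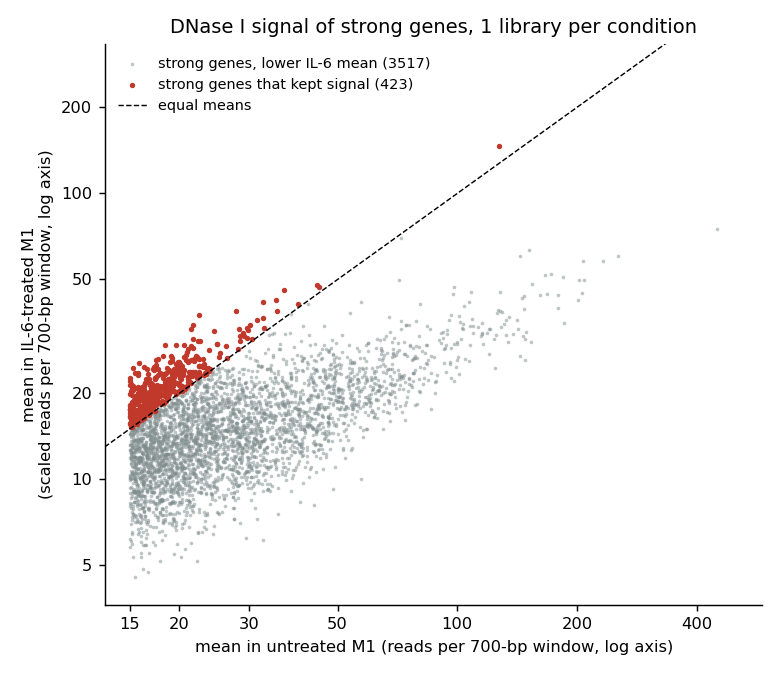
Mean DNase I signal of the 3940 strong genes in untreated M1 cells (horizontal, reads per 700-bp window) and IL-6-treated M1 cells (vertical, scaled reads), 1 point per gene, both axes logarithmic. The 423 kept genes (red) lie on or above the dashed line of equal means and nearly all below 50 reads per window, with Sfi1 alone at 127 and 146.

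The kept genes were at most modestly higher after IL-6. The ratio of the IL-6 mean to the untreated mean had a median of 1.14 and a highest value of 1.67. It was 1.2 or more in 135 genes, 1.5 or more in 10 and 2 or more in 0. The counting interval lay above 1 in 175 kept genes, which is 4.44% of the strong genes and 41.4% of the kept ones. It included 1 in the other 248. Since the choice required a ratio of at least 1, these intervals give only the counting precision of the chosen values. Of the other strong genes, 3209 of 3517 (91.2%) had an interval below 1, which is 81.4% of all strong genes. The members closest to the limit of equal means were Wars, Abcb9 and Abca2, with ratios of 1.0009, 1.0014 and 1.0023. Just outside it were Ccdc88c, Ecm1 and Comp, with ratios of 0.9998, 0.9993 and 0.9989. At the limit of 15 reads per window, Slc30a10, Lcn10 and Odf3l1 had an untreated mean of 15.0. Smad6, Notch2 and Grap2 missed it with 14.99, 14.97 and 14.97. Of the kept genes 27 had exactly 5 windows, and 33 genes with 4 windows, among them Elfn2, Olfml3 and Hyal2, met the other limits.

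The kept gene with the highest ratio was 4930588N13Rik on chromosome 5. Its 45 windows held 1010 reads before and 1624 after IL-6, a mean of 22.4 against 37.5 scaled reads per window and a ratio of 1.67 (1.54 to 1.81). Slc22a14, an organic cation transporter family gene on chromosome 9, had 269 and 419 reads and a ratio of 1.62 (1.38 to 1.89). Zdhhc7, which encodes a palmitoyltransferase, had 173 and 268 reads and a ratio of 1.61 (1.32 to 1.96). These 3 intervals overlap, so their order is not fixed by the counts. Krt17, a keratin of epithelial cells, had 129 and 199 reads and a ratio of 1.602 (1.28 to 2.01). Ugt1a1, the enzyme that conjugates bilirubin, had 153 and 236 reads and a ratio of 1.601 (1.301 to 1.98). Ratios of 1.504 to 1.57 were found at Hhatl, Cdx2, Lgi3, Mpp3 and 6030408B16Rik. Krt17, Ugt1a1 and Cdx2, the caudal homeobox gene of the intestine, belong to epithelia or liver rather than to myeloid cells.

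The kept gene with by far the most signal was Sfi1 on chromosome 11, which encodes a centriole protein. Its 82 windows held 10421 reads in untreated cells and 11554 after IL-6, a mean of 127 against 146 scaled reads per window and a ratio of 1.15 (1.12 to 1.18). The next means were 44.8 and 47.1 at Elfn1, and 44.5 and 47.8 at Alad, the heme synthesis enzyme aminolevulinate dehydratase. Both had intervals that include 1. Gm7120 had 36.6 and 46.1, and Sp110, a nuclear body gene, had 32.5 and 36.6. The rest of the 10 highest were 6330406I15Rik, Slc7a1, Lnx2, Ubl3 and Katnal1, all in 1 region of chromosome 5 described further on, with untreated means of 32.4 to 39.7 and IL-6 means of 34.0 to 42.4 scaled reads per window. To see how unique these spans are, 32-base sequences taken every 35 bases were looked up in the whole of NCBIM37. In Sp110 84.1% of them occurred more than once, with a median of 6 places, so reads of its copies could not be told apart. In Sfi1 the share was 14.8%. The look-up finds only copies that the assembly holds, so a low share does not show that a span is single-copy. Sp110 was the only kept gene above 50%, and the median was 2.89% in kept genes and 4.58% in the other strong genes. Apart from Sfi1 the genes with most reads were long ones, such as Mad1l1, a spindle checkpoint gene (9531 and 10929 reads), Mtus2 (8421 and 9723) and Ulk4 (7278 and 8850). The homeobox gene Cux1 (7647 and 7603), Tbc1d22a (7393 and 7214), Rptor, a subunit of the mTOR complex (6345 and 7269), Flt1, Myrip (4009 and 4573) and Emid2 (3238 and 3753) completed the 10 with most reads.

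Reads were spread more evenly along the kept genes than along the other strong genes. The SD between windows in untreated cells had a median of 10.6 reads in kept genes and 42.7 in the other strong genes. Divided by the mean, this gives a coefficient of variation (CV) with a median of 0.579 (10th to 90th percentile 0.385 to 0.959) in kept genes and 1.61 in the others. It was 1 or more in 31 kept genes (7.33%) and in 2857 of the others (81.2%). Only 163 of the others (4.63%) were below the median of the kept genes. The ratio of variance to mean was 6.14 in kept genes and 71.1 in the others, where reads scattered at random would give 1. The SD took no part in the choice of genes. It does come from the same library as the untreated mean, and a single tall window raises both.

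**Figure D2:**
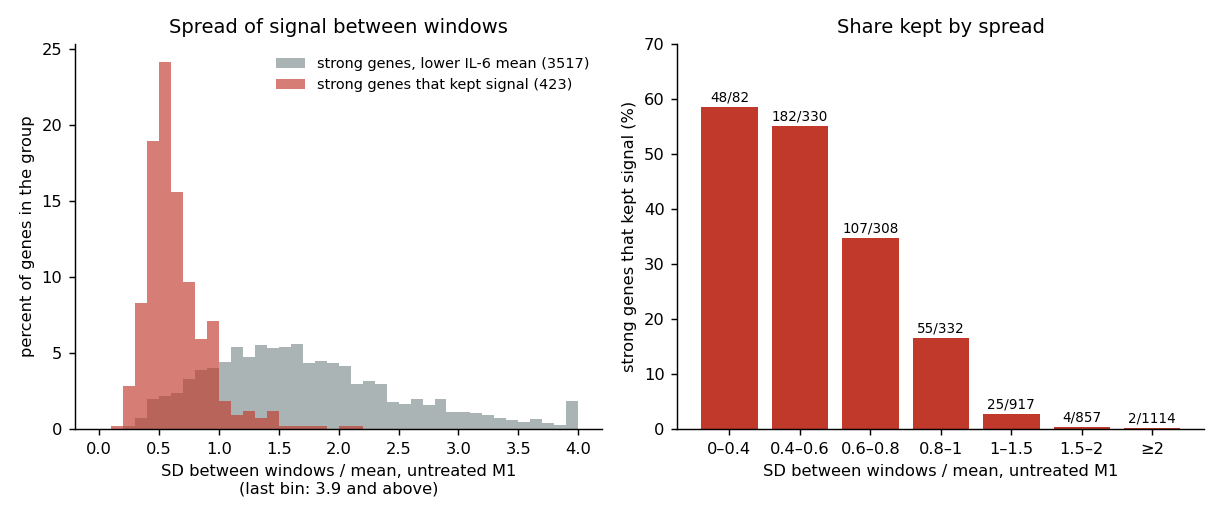
Left, distribution of SD between windows divided by the mean in untreated M1 cells, as percent of the genes in each group. Right, percent of strong genes that kept signal in bins of the same measure, with kept and strong genes counted above each bar, from 58.5% below 0.4 to 0.18% at 2 or above.

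The more even a strong gene was in untreated cells, the more often it was kept. Of 82 strong genes with a CV under 0.4, 48 were kept (58.5%). The share was 55.2% at 0.4 to 0.6, 34.7% at 0.6 to 0.8, 16.6% at 0.8 to 1 and 2.73% at 1 to 1.5. Of 1114 strong genes with a CV of 2 or more, 2 were kept. The gap was also there among genes of similar mean. At an untreated mean of 15 to 17 the median CV was 0.586 in kept genes and 1.44 in the others, and at 20 to 25 it was 0.555 and 1.54. The share kept went with the mean as well. Among genes with a CV under 0.6 it was 74.4% of 121 at a mean of 15 to 17 and 26.1% of 46 at 25 to 40. After IL-6 the other strong genes were more even than before, with a median CV of 0.774 against 0.504 in kept genes. The CV was lower after IL-6 in 97.1% of the others and in 71.2% of the kept genes.

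The most even kept genes were short. Foxj1, a regulator of motile cilia, had 78 and 79 reads over 5 windows, a mean of 15.6 with an SD of 2.19 and a CV of 0.14. Odf3l1, 2810405K02Rik, Tas1r3, which encodes a sweet and umami taste receptor subunit, and Plekhg4 followed with CVs of 0.226 to 0.247. At the other end Tbc1d22a had a CV of 2.17 over 404 windows, with an untreated mean of 18.3 and an SD of 39.7. After IL-6 its mean was 18.5 and its SD 10.8. Dnahc17, a dynein heavy chain gene, went from an SD of 44.7 to 13.9 at means of 21.4 and 21.6. Galns, Pkd1, which encodes polycystin-1, and Vac14 had CVs of 1.86, 1.79 and 1.61 in untreated cells and of 0.717, 0.678 and 0.544 after IL-6. These 5 were picked for the highest CV in untreated cells, which favours a lower value in the other library, and their means were kept by the choice.

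Listed transcripts of a gene or of its neighbours that share window boundaries allow the 5′ end of the coding span to be read separately from the rest. A 5′ stretch of 1 to 6 windows could be recovered in 77 kept genes and in 759 other strong genes. Some neighbours among the others, such as Eif2b4 and Snx17, had the same ratio there (0.224). Counts of the others may therefore not all be of separate stretches or windows. In kept genes this stretch was no stronger than the rest of the gene, with a median of 16.2 against 17.9 reads per window in untreated cells. In the other strong genes the medians were 60.0 and 16.3. The 5′ stretch was at least 2-fold above the rest in 3 kept genes (3.9%) and in 533 of the others (70.2%). After IL-6 the stretch had a median ratio of 1.16 in kept genes and 0.329 in the others. Outside the stretch the others had a median ratio of 0.810, and 185 of the 759 (24.4%) were at or above their untreated mean there. These ratios come from the same values that chose the genes. Single windows differed at the top of their range. Their medians in untreated cells were 20 reads in kept genes and 18 in the others. Of 81 recovered in kept genes none held 100 reads or more in untreated cells, while 197 of 970 (20.3%) in the other strong genes did.

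**Figure D3:**
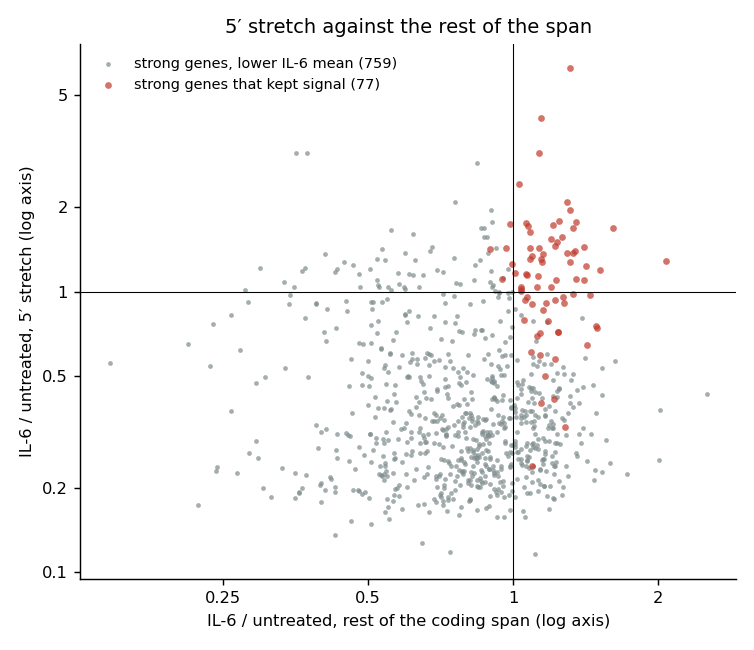
Ratio of IL-6 to untreated signal in the 5′ stretch (vertical) against that in the rest of the coding span (horizontal), 1 point per gene, logarithmic axes, lines at 1. The 759 other strong genes (grey) lie mostly low on the vertical axis around 0.329, while the 77 kept genes (red) lie around 1.16.

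The 3 kept genes whose 5′ stretch was at least 2-fold above the rest had lower values in that stretch after IL-6. They were picked for a high untreated value there, which favours a lower value in the other library. As their whole-gene means were kept by the choice, a lower stretch requires a higher rest. Polr1d, a subunit of RNA polymerases I and III, held 406 reads in its first 3 windows in untreated cells and 129 after IL-6, a ratio of 0.330 (0.268 to 0.403). Its other 45 windows went from a mean of 23.4 to 30.1 scaled reads, a ratio of 1.28 (1.18 to 1.39), so the whole gene came out at 1.02. Dennd4b had 83 and 33 reads in its first window, a ratio of 0.413 (0.267 to 0.625), and 1.21 (1.02 to 1.44) elsewhere. Tnfaip2, a gene induced by tumor necrosis factor, had 49 and 19 reads in its first window and a ratio of 0.403 (0.224 to 0.696), against 1.14 (0.955 to 1.36) in the rest. Other kept genes with many reads in the 5′ stretch went either way. Thbs3 held 116 and 72 reads in its first 5 windows, a ratio of 0.644 (0.473 to 0.872). Some were higher there. The first window of Slc7a1 held 54 and 74 reads, a ratio of 1.42 (0.988 to 2.06), the first 5 of Sfi1 held 230 and 283, a ratio of 1.28 (1.07 to 1.53), and the first 4 of Trak1 held 125 and 157, a ratio of 1.304 (1.02 to 1.66). In 27 of the 77 kept genes the 5′ stretch had a ratio below 1, and in 7 the interval was below 1.

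Kept genes were unevenly placed among the chromosomes. Chromosome 15 held 72 of them, 22.4% of its 321 strong genes. Chromosome 11 held 62 of 451 (13.7%), chromosome 9 58 of 322 (18.0%), chromosome 8 56 of 329 (17%) and chromosome 5 41 of 301 (13.6%). Together these 5 chromosomes held 68.3% of the kept genes, 43.8% of the strong genes and 29.6% of all genes with at least 5 windows. Chromosome 12 followed with 27 of 158 (17.1%). Chromosome 6 held 1 of 133 and chromosome 2 held 6 of 241. On chromosome 15 the median gene had 14.9 reads per window in untreated cells and 14.9 after IL-6, against 8.60 and 8.59 over all chromosomes. The number of copies of the chromosomes in these cells was not tested. Outside the 5 chromosomes the 134 kept genes had a median CV of 0.577, against 1.65 in the other strong genes there.

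**Figure D4:**
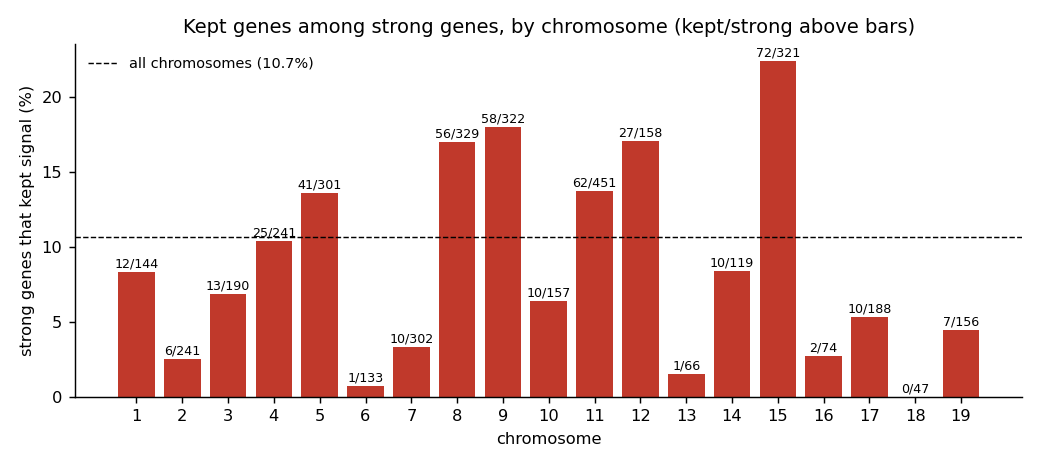
Percent of strong genes on each chromosome that kept their signal, with kept and strong genes counted above each bar and the share over all chromosomes (10.7%) as a dashed line. Chromosomes 15, 9, 12 and 8 stand highest, and chromosomes 6, 13 and 18 lowest.

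Kept genes also had kept neighbours. Of 423, 165 (39.0%) lay next to another kept gene in the order of genes with at least 5 windows, against 352 of 3517 (10.0%) other strong genes. No kept spans shared a window, so no read counted for a pair of them. There were 21 runs of 3 or more kept genes in a row, with 77 genes in all. The 10 fullest of 502 bins of 5 Mb held 170 of the kept genes (40.2%). On chromosome 8 a run of 6 reached from Taf1c to 4632415K11Rik in 175 kb. On chromosome 9 the runs Plcd1 to Slc22a14, Ctnnb1 to Trak1, Zfp651 to Ccdc13 and Fam198a to Ano10 lay close together, and 16 of the 29 strong genes between 120 and 125 Mb were kept. On chromosome 14 the heart myosin genes Myh6 and Myh7 stood in a run with Cmtm5.

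The bin with most kept genes lay on chromosome 11 between 115 and 120 Mb, with 24 of 92 strong genes kept (26.1%). A further region with many kept genes, picked after its values were seen and bounded by kept genes, lay near the end of chromosome 5. From Wasf3 to Kl (NCBIM37 chromosome 5, 147246911 to 151794429, 4.55 Mb) there were 37 genes with at least 5 windows, of which 19 were kept, 11 were strong with a lower mean after IL-6 and 7 were under 15 reads. The kept genes here had untreated means of 15.2 to 39.7 and IL-6 means of 17.8 to 42.4 scaled reads per window. They include Pdx1, the pancreatic homeobox gene (136 and 164 reads), and Cdx2 (124 and 182 reads). Flt1, the receptor of vascular endothelial growth factor, held 6066 and 6561 reads, a ratio of 1.12 (1.08 to 1.16). Slc7a1, the transporter of arginine and lysine, held 1057 and 1122 reads, a ratio of 1.102 (1.01 to 1.1997). The GC content of the kept spans was 46.4% at the median, below the 52.8% of all kept genes.

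Strong genes with a lower mean sat between runs of kept ones, of which the longest were Slc46a3 to Uspl1 with 6 genes and Lnx2 to Prhoxnb with 5. Flt3, the cytokine receptor of early blood progenitors, held 5338 and 2840 reads, a mean of 53.4 against 29.5, and lies between Prhoxnb (29.5 and 33.8) and Flt1 (26.1 and 29.4), both kept, with Pan3 next to it. Pomp, which encodes a proteasome assembly factor, went from 98.0 to 47.0 between Flt1 and Slc46a3. Alox5ap starts 49.9 kb after the end of the Uspl1 span and had 151 against 63.3, while Uspl1 had 31.3 and 36.1. Hsph1, a heat shock protein gene, had 151 against 58.0 in its 7 windows at the 5′ end, and 25.9 against 36.4 in the other 21 windows. Its kept neighbours were lower, with 21.4 against 29.2 at Wdr95 and 17.7 against 20.4 at B3galtl. After IL-6 the medians of the kept genes and of the lower ones in this region were close, at 30.4 and 29.5 scaled reads per window. In untreated cells they were 26.1 and 39.5.

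**Figure D5:**
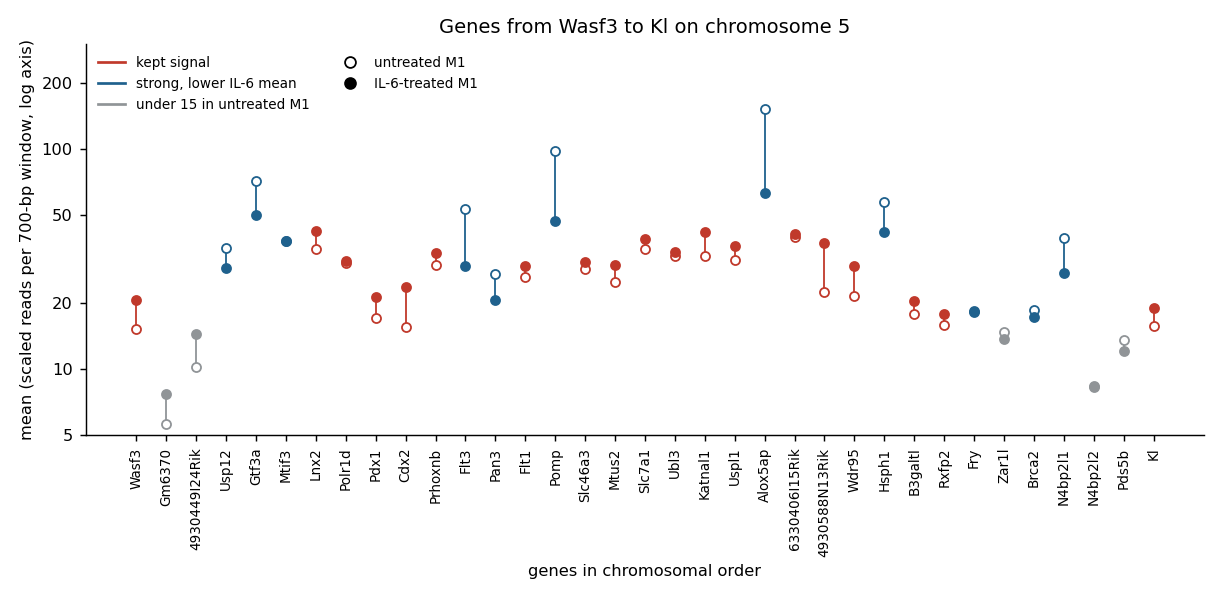
Mean DNase I signal of genes from Wasf3 to Kl in chromosomal order, untreated M1 (open) and IL-6-treated M1 (filled), logarithmic axis, without Gm3409 and Gm3415, which had 1 read each over both libraries. Kept genes (red) and strong genes with a lower IL-6 mean (blue) are interspersed, with kept genes in runs of up to 6, and the tall open circles at Gtf3a, Flt3, Pomp, Alox5ap and Hsph1 come down toward the level of the kept genes.

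Strong keratin genes were nearly all kept. Keratins build the intermediate filaments of epithelia and hair and lie in a pair of clusters on chromosomes 11 and 15. Of 17 strong keratin genes 16 were kept, against 10.7% of all strong genes and 25.5% of those with an untreated mean of 15 to 17. Strong keratin genes were also even, with a median CV of 0.564. Of all strong genes with a CV under 0.6, 74.4% were kept at a mean of 15 to 17 and 60.3% at 17 to 20. Lying in a pair of clusters, the keratin genes are not separate places in the genome. All 6 strong ones on chromosome 11 were kept (Krt17, Krt20, Krt35, Krt36, Krt40 and Krt42), and 10 of 11 on chromosome 15. The exception was Krt80, with 24.1 and 22.4 reads per window and a ratio of 0.928 (0.833 to 1.03). The kept ones had untreated means of 15.0 to 22.1 and IL-6 means of 16.8 to 29.5 scaled reads per window. Krt5, of the basal layer of the epidermis, had 177 and 206 reads, a ratio of 1.21 (0.984 to 1.49). Krt42 had 226 and 313 reads, a ratio of 1.44 (1.21 to 1.71). The 34 keratin genes under 15 reads per window, which the choice did not use, were all at or above their untreated mean after IL-6. The same held for 65% of all 12190 genes under 15 reads.

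The Cyp2d genes, which encode cytochrome P450 enzymes of the liver, were a smaller class of the same kind. All 5 strong ones were kept, against 10.7% of all strong genes and 22.4% of those on chromosome 15. The 3 weaker ones were also at or above their untreated mean, as were 65% of all genes under 15 reads. The Cyp2d genes were singled out from a wider class of amplified families, in which 7 of 12 strong genes were kept. Cyp2d10, Cyp2d9, Cyp2d12 and Cyp2d34 form a run of neighbours within 218 kb of chromosome 15, so they are not separate places in the genome. Cyp2d12 had 121 and 166 reads over 7 windows, a ratio of 1.42 (1.12 to 1.81), and Cyp2d22 had 121 and 162, a ratio of 1.39 (1.09 to 1.77). Intervals of Cyp2d9, Cyp2d10 and Cyp2d34 included 1. These genes are copies of each other, and in Cyp2d9 29.4% of the 32-base sequences occurred elsewhere, so part of their reads may have been split among them. Of 77 strong solute carrier genes 12 were kept (15.6%), of 56 zinc finger genes 3 (5.36%) and of 248 genes with a Gm or Rik name 22 (8.87%). Gm and Rik names made up 5.2% of the kept genes, 6.29% of the strong genes and 10.4% of all genes with at least 5 windows.

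Few strong genes of the blood, signaling and housekeeping lists were kept. Over the 8 lists, 77 were strong and 2 were kept (2.60%, against 10.7% of all strong genes), while 74 had an interval below 1, as did 81.4% of all strong genes. The lists were not matched for the untreated mean. Over all strong genes the share kept was 25.5% at a mean of 15 to 17, 2.50% at 25 to 40 and 0.393% at 40 or more. None of 16 strong hematopoietic transcription factors was kept. Sfpi1, which encodes PU.1, had 28.9 reads per window in untreated cells and 12.9 after IL-6, and Myc, the growth regulator, had 72.4 and 23.0. Irf8, a factor of the macrophage lineage, was even along its span with a CV of 0.48 but had 25.5 and 19.5. Tcf3, an E protein, came nearest to being kept with 16.9 and 15.7. None of 18 strong replication and mitosis genes was kept, with Mcm7, of the replicative helicase, at 74.3 and 18.6. None of 11 genes used in all cells was kept, with Gapdh, of glycolysis, at 72.7 and 17.1. None of 36 strong ribosomal protein genes was kept. Counting those under 15 reads too, genes used in all cells had a median untreated mean of 36.9 and ribosomal protein genes of 32.7. At such means few strong genes of any kind were kept.

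Among other lists, none of 3 strong macrophage genes was kept, with Csf1r, the receptor of the growth factor M-CSF, at 26.2 and 14.8. None of 4 strong progenitor genes was kept, and none of 10 cytokine and chemokine genes or 7 chromatin regulators. With 10.7% of strong genes kept, lists this short say little by a count of 0. Among genes under 15 reads per window, 20 of 27 macrophage genes (74.1%) were at or above their untreated mean after IL-6, against 65% of all such genes. The IL-6 and JAK-STAT list was the only one with kept genes, 2 of 8 strong ones (25%), and is as short. Cish, an inhibitor of STAT5 that cytokines induce, held 134 reads in untreated cells and 158 after IL-6 over 7 windows, a ratio of 1.22 (0.966 to 1.55). Stat5a held 597 and 597 reads over 33 windows, a ratio of 1.038 (0.925 to 1.16) that is the scaling factor itself. Both intervals include 1. Stat3, the main carrier of the IL-6 signal, was not kept, with means of 20.5 and 18.2 and a CV of 1.08. Il6ra, the IL-6 receptor, had 17.9 and 13.6.

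Some kept genes outside the lists also belong to blood cells, and these were picked after their values were seen. Strong blood genes outside the lists that were lower after IL-6 were not counted, so no share can be given. Epor, the erythropoietin receptor, held 112 and 132 reads over 7 windows, a ratio of 1.22 (0.944 to 1.59). Slc4a1, the anion exchanger of red cells, held 325 and 435 reads over 17 windows, a ratio of 1.39 (1.201 to 1.61). Il2rb, a receptor chain of IL-2 and IL-15, held 291 and 331 reads over 15 windows, a ratio of 1.18 (1.01 to 1.39). Il27ra, a receptor of the IL-6 family of cytokines that pairs with gp130, held 274 and 291 reads over 18 windows, a ratio of 1.103 (0.932 to 1.31). Cd33, a sialic acid receptor of myeloid cells, held 131 and 144 reads over 7 windows, a ratio of 1.14 (0.894 to 1.46). Nr4a1, a nuclear receptor induced early by many stimuli, held 118 and 121 reads over 7 windows, a ratio of 1.06 (0.819 to 1.38).

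The spans of kept genes were rich in G and C. Their GC content had a median of 52.8%, against 50.1% in the other strong genes and 45.5% in all genes with at least 5 windows. The share of strong genes that was kept went from 1.23% of 407 genes under 44% GC to 16.6% at 52 to 54% and 19.5% at 54 to 56%. Evenness moved with GC as well. The median CV of all strong genes was 2.55 under 44% GC and 0.860 at 56% or more. Among the 412 strong genes with a CV under 0.6 the share kept did not rise with GC, with 81.3% of 16 genes under 48%, 50% of 98 at 48 to 52%, 64.2% of 187 at 52 to 56% and 43.2% of 111 above. At a CV of 0.6 to 1 the share fell with GC over the same bins, opposite to the trend over all strong genes. It went from 38.0% of 50 genes through 29.8% of 218 and 22.9% of 279 to 15.1% of 93. These GC bins were not matched for the untreated mean, with which the share kept went as well. Density of CG pairs was 16.8 per kb in kept spans and 17.5 in the other strong ones. Coding sequence made up 15.4% of kept spans and 10.9% of the others. How far base composition shares in the kept signal was not tested.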

How the data were processed

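DNase I hypersensitivity was measured in untreated and IL-6-treated M1 cells, 1 library each. Per the labels and methods, reads were aligned with BWA to NCBIM37 and summarized in Seqmonk, versions not given in the sources used here. The deposited signal values are the mean and SD of reads over the 700-bp windows touched by the coding span of each of 55432 transcripts. In 99.9% of the rows both ends of the span lie within 3 bp of those of the GENCODE M1 coding span. The authors had scaled the IL-6 library, in which 1 read is worth 1.038. Reads were recovered as mean times windows over this value and were within 0.0029 of whole numbers. No fit across libraries was possible with 1 library each, so no p-value is given. Stretches came from differences between transcripts that share a window boundary. In 39183 comparisons of such sums 0 disagreed, but these include spans compared with themselves, which must agree. The recovery was tested on simulated data. GC, CG pairs and repeated 32-base sequences were read from NCBIM37. A gene is named if it is among the 10 highest by untreated mean, ratio or reads, the 5 lowest or highest by CV, the 3 nearest to a limit, or a kept gene of a list, and further genes illustrate classes and regions. The members and lists were chosen with earlier results of these data known. Alternatives covered scaling, limits, the row per gene and chromosomes. Scripts ran on Python 3.11.15 with pandas 2.3.3, numba 0.67.0, scipy 1.17.1, matplotlib 3.10.9, pysam 0.24.0 and numpy 2.4.6.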

Additional observations from a re-analysis of the deposited data

How the results depend on the processing

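No paired analysis was possible because there is only 1 library of either kind. With no scaling 361 genes were kept, with the total over coding spans 459 and with the median of ratios over genes 409, and the counting interval lay above 1 in 132, 209 and 170 of them (175 as reported). Over these scalings the median CV of kept genes stayed between 0.576 and 0.581. The limits moved the number of kept genes most. It was 908 with an untreated mean of at least 12 and 109 with at least 20, 635 with a ratio of at least 0.9 and 273 with at least 1.1. The median CV of kept genes was 0.605 with a mean of at least 12 and 0.617 with at least 10 windows. The median CV of the other strong genes was 1.58 and 1.67 with a mean of at least 12 and 20, 1.5 and 1.75 with at least 3 and 10 windows, and 1.65 without the 5 chromosomes with most kept genes. The last setting and all for GC content were added after seeing the data. Median GC of kept spans was 52% and 53.8% with a mean of at least 12 and 20, 52.1% with at least 10 windows and 53.9% without the 5 chromosomes. That of the other strong spans was 49.5% and 50.7% with a mean of at least 12 and 20, 50.5% and 49.3% with at least 3 and 10 windows, 49.7% with the row of highest untreated mean and 50.7% with the limit set on the mean of both libraries. In each of these the kept genes had the lower CV and the higher GC. With a mean of at least 20 the chromosome with most kept genes was 5 in place of 15. None of 33 strong genes on chromosome X was kept. The shares of repeat-masked sequence were planned but not run, since the genome used here marks no repeats. Depth limits single genes most: kept genes had as few as 75 reads in untreated cells. Scaling by library totals beyond coding spans was not tested.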
